A study of Mus musculus with 2 samples.

Results

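The genes described here are 10 components of the circadian clock: Arntl (also called Bmal1), Npas2, Per1, Per2, Per3, Cry1, Cry2, Ciart (also called Gm129), Nr1d1 and Dbp. They were taken by gene name from the non-control probes of both arrays. This gave 12 probes of the 39417 on the array, 2 each for Per1 and Dbp and 1 for each of the others. All 12 probes were well above background on both arrays, so all 10 genes were among the 22714 measured genes.

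The samples were Sdr9c7-/- dorsal skin and wild type dorsal skin, both from newborn mice at postnatal day 0 on a C57BL/6J background. Each genotype had 1 array, hybridised with a pool of RNA from 5 animals. Sdr9c7 encodes an oxidoreductase that modifies the acylceramides of the skin barrier. The labels name the tissue as skin, while the design text calls it epidermis. The labels name no cell-restricted promoter or Cre, and they give no hour of dissection. Time of day, pool, array and genotype therefore cannot be told apart, and no difference below has a replicate check or a p-value.

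The mammalian clock is a transcriptional feedback loop that runs in most cells. Heterodimers of CLOCK or NPAS2 with BMAL1 bind E-boxes and drive the Per and Cry genes, whose proteins return to the nucleus and repress those same heterodimers. Nr1d1 encodes REV-ERB alpha, a nuclear receptor that represses Arntl and Npas2 through ROR elements, and Dbp encodes an activator that binds D-boxes. Ciart encodes CHRONO, a further repressor of BMAL1-driven transcription. In mouse skin, clocks are known in keratinocytes, hair follicles and dermal cells, where they time cell division and metabolism.

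The sequences shown in this report are matches to elements through which the loop is known to act, and the probes that read its largest differences. RefSeq promoter windows, running from 250 bases before each annotated start to 50 after it (GRCm38.p6), were found for 9 of the 10 genes, 11 windows in all. Per2 had no entry. The motifs searched on both strands were the E-box CACGTG, the variant E-prime box CACGTT, the D-box TTATGTAA and its variant TTACGTAA, and the ROR element TAGGTCA. None of these contains another. The stretches below lie before the start and hold every match found there, in capitals, with 25 flanking bases where the window allows. A match on the other strand is printed as AACGTG, the reverse complement of CACGTT.
Ciart, chr3:95882242-95882369, minus strand: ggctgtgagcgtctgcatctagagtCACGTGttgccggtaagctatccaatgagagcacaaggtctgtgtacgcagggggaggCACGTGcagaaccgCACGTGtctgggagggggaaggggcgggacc
Cry1, chr10:85185084-85185158, minus strand: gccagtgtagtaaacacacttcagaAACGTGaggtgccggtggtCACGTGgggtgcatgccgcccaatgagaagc
Per1, chr11:69098758-69098813, plus strand: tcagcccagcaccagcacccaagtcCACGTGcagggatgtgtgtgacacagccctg
Cry2, chr2:92434205-92434260, minus strand: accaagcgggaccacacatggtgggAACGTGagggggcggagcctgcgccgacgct
Nr1d1, chr11:98775378-98775430, minus strand: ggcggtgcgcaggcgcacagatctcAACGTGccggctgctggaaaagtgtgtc
Per3, chr4:151044791-151044895, minus strand: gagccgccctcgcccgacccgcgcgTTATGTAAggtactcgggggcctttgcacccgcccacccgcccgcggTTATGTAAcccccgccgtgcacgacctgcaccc

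E-boxes were found before the starts of Ciart, Cry1 and Per1, and Ciart held 3 of them, with first bases at positions -116, -58 and -44 from the start. Of 32851 RefSeq promoter windows of this length, 7.15% held at least 1 CACGTG and 0.0883% held at least 3. CACGTT was found for Cry1, Cry2 and Nr1d1, against 4.68% of all windows. Per3 held 2 copies of TTATGTAA, a word in 0.938% of windows, and no window of the 10 genes held TTACGTAA, which 0.119% of all windows did. The ROR element appeared once, 30 bases after 1 of the starts of Arntl, and in 2.61% of all windows. The windows of Npas2 and Dbp held none of these words. A match describes the letters of a window and not binding.

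Signals are given relative to the 75th percentile of each array, so that 1 equals that percentile, and differences are Sdr9c7-/- minus wild type on the log2 scale. A difference was set against the share of all measured genes at least 2-fold and at least 1.5-fold apart (1 and 0.58 on the log2 scale). Where a gene had several probes, their differences varied around the gene's mean difference with an SD of 0.25, pooled over 5176 genes. Probes printed many times on the array gave the SD of this difference between spots at a like signal, which is quoted beside single genes. Both SDs cover measurement on these arrays and not animals or litters.

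Among the 10 genes, 1 was at least 2-fold lower in Sdr9c7-/- skin (Per2) and 0 were at least 2-fold higher. Over all measured genes, 1.35% were at least 2-fold lower and 0.528% at least 2-fold higher. At least 1.5-fold apart were 3 of the 10, with Per2 and Nr1d1 lower and Ciart higher. Over all genes this share was 8.4%, made up of 6.04% lower and 2.36% higher. The lower genes were 71.9% of those 1.5-fold apart. This share was 77.9% with normexp correction, 63.7% with median scaling, 61.5% with quantile normalization, 57.9% without the filter for dim probes and 60.3% with loess. The median difference of the 10 genes was -0.12, beside -0.04 over all measured genes. Below 0 were 7 of the 10, beside 56.9% of all measured genes. Under median scaling 6 of the 10 were below 0, beside 48.8% of all genes, and with normexp correction 8 of the 10, beside 63.1%.

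**Figure D1:**
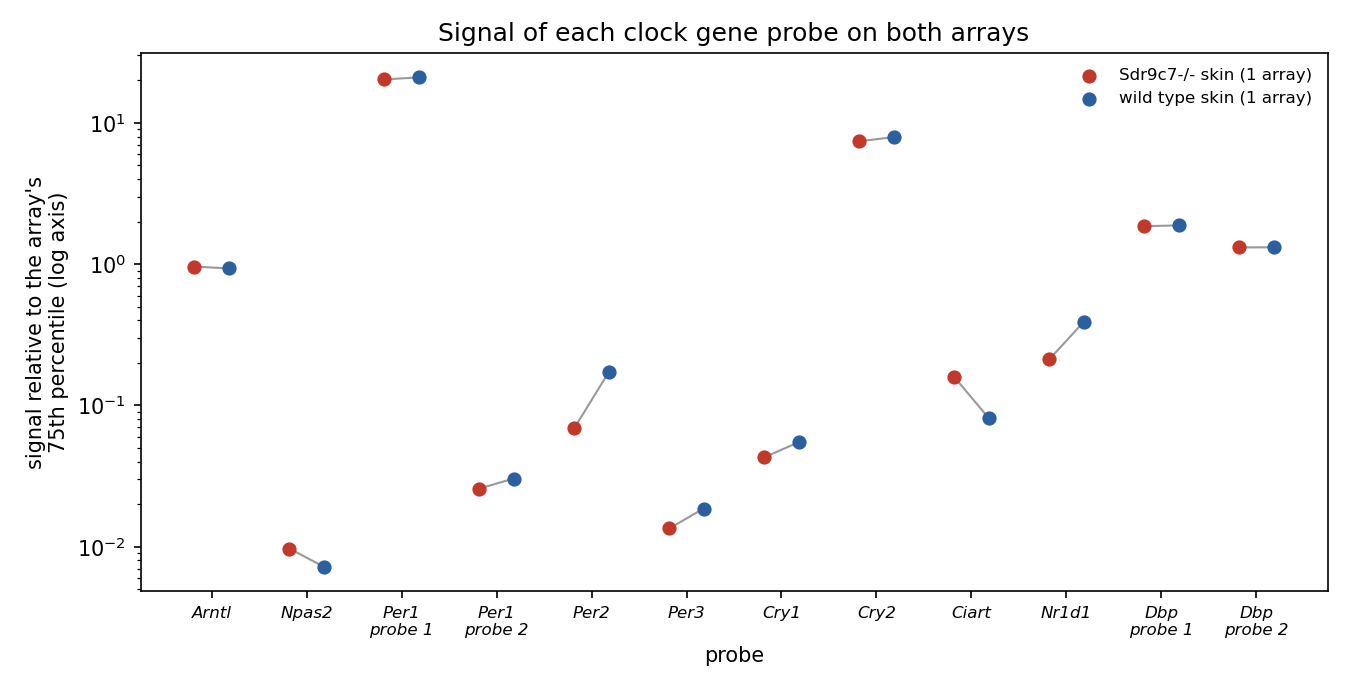
Signal of each of the 12 clock gene probes in Sdr9c7-/- skin (red, left of each pair) and wild type skin (blue, right), relative to the array's 75th percentile on a log axis, with 1 array a group and no error bars. Per2 and Nr1d1 sit lower in Sdr9c7-/- skin, Ciart sits higher, and the pairs of Arntl, Cry2 and Dbp are nearly level.

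Of the activators, Arntl was nearly level, and Npas2 was 1.34-fold higher at a dim probe. Arntl encodes BMAL1, the obligate partner in the activating heterodimer. It read 0.962 in Sdr9c7-/- skin and 0.933 in wild type skin, a difference of 0.04. That is smaller than the spot SD of 0.06 at this signal. Its probe lay on chr7:120457261-120457320 (mm9, the build of the array files), starting at base 2528 of the transcript.

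Npas2 encodes the PAS-domain protein that can take the place of CLOCK. It read 0.00970 in Sdr9c7-/- skin and 0.00722 in wild type skin, a difference of 0.43. This was a dim probe. The SD between spots of repeatedly printed probes in its signal range was 0.26, and the error of the difference by the scanner software's own error model was 0.35. Of 1484 genes within 0.5 log2 units of its mean signal, 17.8% were at least 1.5-fold apart and 8.76% were at least as high. With normexp background correction the Npas2 difference was -0.06.

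Among the repressors of the Per family, the signals differed from member to member. Per2 encodes a core repressor that binds CRY proteins. It read 0.0692 in Sdr9c7-/- skin and 0.172 in wild type skin, and was 2.48-fold lower (-1.31). The spot SD at this signal was 0.09 and the error-model error of the difference was 0.21. Of the 22714 measured genes, 92 had a lower difference than Per2.

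The Per2 spot was examined further because the gene had 1 probe. Its raw mean intensity was 173 in Sdr9c7-/- skin and 334 in wild type skin, over local backgrounds of 31 and 32. Pixel SD over mean was 0.136 in Sdr9c7-/- skin and 0.170 in wild type skin. The 215 detected spots within 8 rows and columns of it had a median difference of -0.03, and 2 of them were at least 2-fold apart. Of 2206 genes of like signal, 9.47% were at least 1.5-fold apart and 0.408% were as low as Per2. With normexp correction the difference was -0.98, short of 2-fold.

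The Per2 probe lay on chr1:93313046-93313105 (mm9) and started at base 5290 of the transcript. Its first 30 of 60 bases identify it.
Per2 probe: acctttcacagtgatcaggtagtagccatg
None of its forward reading frames was open over all 60 bases.

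Per1, the paralogue that responds most rapidly to hormones and light in mouse tissues, was nearly level. Its probe for the RefSeq transcript, on chr11:68923364-68923423 (mm9), read 20.3 in Sdr9c7-/- skin and 21.0 in wild type skin, a difference of -0.04. Its second probe, designed on a cDNA clone, read 0.0258 in Sdr9c7-/- skin and 0.0304 in wild type skin, a difference of -0.24. The spot SD was 0.05 in the signal range of the RefSeq probe and 0.17 in that of the clone probe. Neither Per1 probe was 1.5-fold apart, whereas the Per2 probe was past 2-fold, and the contrast between the paralogues has no test.

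Per3, a family member with a smaller part in the core loop, read 0.0135 in Sdr9c7-/- skin and 0.0186 in wild type skin. The difference was -0.47, with an error-model error of 0.28. At this dim signal 18.6% of 2008 genes were at least 1.5-fold apart and 19.0% were as low as Per3. The difference was -0.22 after normexp correction.

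The cryptochromes, flavin-binding repressors that act with the PER proteins, were within 1.5-fold. Cry1 read 0.0430 in Sdr9c7-/- skin and 0.0549 in wild type skin, a difference of -0.35 with a spot SD of 0.11. Among 1993 genes of like signal, 20.4% were as low. Cry2 read 7.42 in Sdr9c7-/- skin and 7.93 in wild type skin, a difference of -0.10, with a spot SD of 0.05.

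Nr1d1 was the second lowest of the 10. It read 0.212 in Sdr9c7-/- skin and 0.389 in wild type skin, and was 1.84-fold lower (-0.88). The spot SD was 0.06 and the error-model error 0.20. There were 516 measured genes with a lower difference, and 2.64% of 2351 genes of like signal were as low. The Nr1d1 probe stood in a stretch of the slide where dim spots scattered more than elsewhere. The 210 detected spots around it had a median difference of 0.00 and 5 of them were at least 2-fold apart. With those stretches of the slide left out, Nr1d1 and Arntl had no value.

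The Nr1d1 probe, unlike those of the other genes, has no genome position in the array files, which list it as unmapped. It starts at base 2054 of the transcript and its first reading frame is open over all 60 bases.
Nr1d1 probe: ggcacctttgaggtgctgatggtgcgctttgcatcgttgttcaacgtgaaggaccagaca

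Nr1d2 encodes REV-ERB beta, the paralogue of REV-ERB alpha, and was read by 2 probes. Both were lower in Sdr9c7-/- skin, at -0.64 (0.359 in Sdr9c7-/- skin, 0.561 in wild type skin) and -0.56 (0.565 in Sdr9c7-/- skin, 0.831 in wild type skin). Their mean of -0.60 was just past 1.5-fold. Nr1d2 was at least 1.5-fold lower neither with the brightest probe alone nor under median scaling, quantile normalization or normexp correction.

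Dbp, a classic E-box-driven output of the loop that shares its activators with Nr1d1 and Per2, was level at both of its probes. The first, on chr7:52965322-52965381 (mm9), read 1.86 in Sdr9c7-/- skin and 1.88 in wild type skin. The second, on chr7:52965461-52965520, read 1.31 in Sdr9c7-/- skin and 1.32 in wild type skin. The differences were -0.02 and 0.00, with a spot SD of 0.05. The second Dbp probe also stood in a stretch of the slide where dim spots scattered more than elsewhere. With those stretches left out, Dbp rested on the first probe alone, at -0.02.

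Ciart was the highest of the 10. It read 0.159 in Sdr9c7-/- skin and 0.0816 in wild type skin, and was 1.94-fold higher (0.96). The spot SD was 0.09, the error-model error 0.21, and 128 measured genes had a higher difference. Of 2238 genes of like signal, 0.492% were as high. The 139 detected spots around it had a median difference of 0.00. After normexp correction the difference was 0.58, just under 1.5-fold.

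The identity of the Ciart probe is not settled by the array files. They name the gene and place the probe at base 1330 of its RefSeq transcript, yet give it the position chr10:127986601-127986660 (mm9), whereas RefSeq puts Ciart on chromosome 3. Such a mismatch of chromosomes was found for 745 of 27072 probes named by accession (2.75%). The given position is 638 kb from the Sdr9c7 probe at chr10:127348150-127348209 (mm9). Probes of other genes within 10 kb of it were not at least 1.5-fold apart: Zc3h10 was at 0.35, Pa2g4 at 0.16 and Rpl41 at -0.11. Whether the probe reads a chromosome 10 transcript was not tested. Its first 30 of 60 bases are shown, and 25% of the 60 bases are G or C, a share that ran between 23.3% (Cry1) and 55% (the Per1 clone probe) over all 12 probes.
Ciart probe: ttttttactttaatgtatttgtggtgagga

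**Figure D2:**
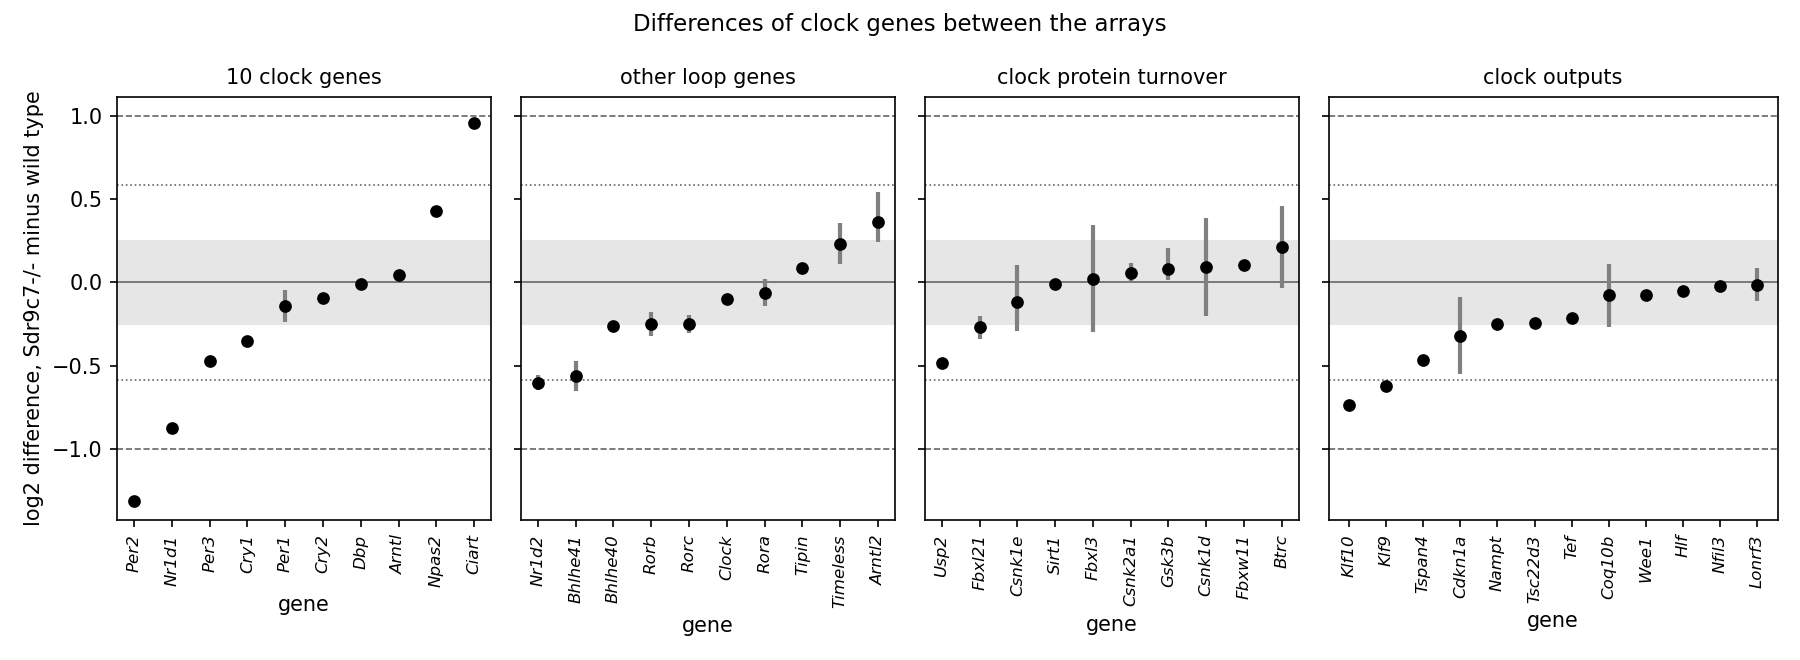
Log2 difference (Sdr9c7-/- minus wild type) of the 10 clock genes, 10 other genes of the loop, 10 genes of clock protein turnover and 12 clock outputs, ordered by value within each panel. Points are gene means over probes, grey bars span the probes of a gene, the grey band is 1 SD between probes (0.25), dotted lines mark 1.5-fold and dashed lines 2-fold. Per2 alone passes 2-fold, and all 12 clock output means lie below 0 at this scaling, with 10 below 0 under median scaling. Of all measured genes, 56.9% lie below 0 at this scaling and 48.8% under median scaling.

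The other genes of the loop were mostly close to level. Of 10 measured, 1 was at least 1.5-fold lower (Nr1d2) and 0 were higher, beside 6.04% lower and 2.36% higher over all genes. Their median was -0.17, and 7 of the 10 were below 0, beside 56.9% of all genes. At this scaling both counts were near the shares over all genes. Under median scaling 7 of the 10 were below 0, beside 48.8% of all genes. With the brightest probe 6 of the 10 were, beside 55.7%. Bhlhe41, an E-box-binding repressor also known as DEC2, was next lowest at -0.56. Its signals were 0.00880 in Sdr9c7-/- skin and 0.0130 in wild type skin. At the other end, Arntl2, a paralogue of Arntl, was at 0.36 over 3 probes that ranged from 0.24 to 0.54. Timeless, known in mammals mainly from replication fork protection, was at 0.23.

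Among genes that mark, degrade or stabilise clock proteins, 0 of 10 were 1.5-fold apart, which is near the 8.4% of all genes. Their median was 0.04. Usp2, a deubiquitinase with rhythmic transcript levels in many mouse tissues, was lowest at -0.48, with 1.69 in Sdr9c7-/- skin and 2.37 in wild type skin. Fbxl21, an F-box protein that acts on cryptochromes, was at -0.27, with dim signals of 0.00933 in Sdr9c7-/- skin and 0.0112 in wild type skin. Btrc, the ubiquitin ligase adaptor that targets PER proteins, was highest at 0.21, with probes at -0.04 and 0.46. Fbxw11, its paralogue, was at 0.10.

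Most clock outputs lay slightly below 0. Of 12 measured, 12 were below 0 with a median of -0.23. This count was 10 under median scaling, quantile normalization, normexp correction or with the brightest probe, and 11 with loess. Over all genes 56.9% were below 0 as reported, 48.8% under median scaling and 49.3% under quantile normalization. The share was 63.1% with normexp correction, 55.7% with the brightest probe and 50.8% with loess. At least 1.5-fold lower were 2 of the 12, beside 6.04% of all genes, and 1 of the 12 under median scaling or normexp correction. Klf10, a Krüppel-like factor that is rhythmic in mouse liver, read 2.50 in Sdr9c7-/- skin and 4.16 in wild type skin (-0.74). Klf9, a glucocorticoid-responsive factor that restrains proliferation of human keratinocytes, read 1.89 in Sdr9c7-/- skin and 2.90 in wild type skin (-0.62). It was the gene lost under median scaling and normexp correction, at -0.58 in each. At the other end, Nfil3, the repressor that competes for D-boxes, was at -0.02. Lonrf3 was at -0.01.

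**Figure D3:**
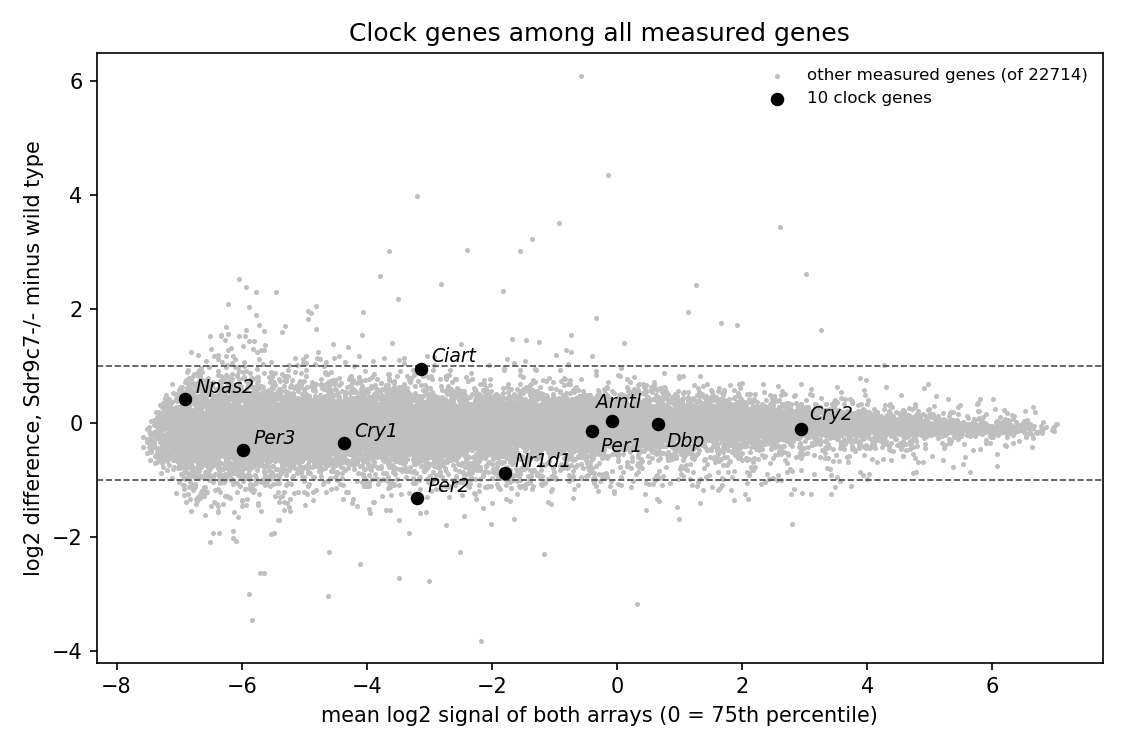
Log2 difference (Sdr9c7-/- minus wild type) against the mean log2 signal of both arrays for all 22714 measured genes (grey), with the 10 clock genes in black and dashed lines at 2-fold. Per2 and Ciart lie at the edges of the cloud at their signal, while Npas2 and Per3 lie where dim genes scatter widely.

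The labels were checked on Sdr9c7, which read 0.0479 in Sdr9c7-/- skin and 0.324 in wild type skin, 6.78-fold lower. Keratinocyte markers were level (7 measured, median 0.03, each within 1.5-fold), as were 6 fibroblast markers (median -0.03). Summed, the fibroblast markers read 311 in Sdr9c7-/- skin and 319 in wild type skin, so the RNA was not from epidermis alone. Well above background were 76.8% of probes in Sdr9c7-/- skin and 74.9% in wild type skin, and 0 spots were saturated.

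Most skeletal muscle and adipocyte markers were lower on the Sdr9c7-/- array, while the fibroblast markers were level. All 10 skeletal muscle markers were lower in Sdr9c7-/- skin, 8 of them at least 1.5-fold, with a median of -0.97. Over all genes 56.9% were below 0 and 6.04% at least 1.5-fold lower. Their summed signal was 134 in Sdr9c7-/- skin and 222 in wild type skin. All 8 adipocyte markers were below 0 (7 under median scaling or quantile normalization), 4 at least 1.5-fold lower, with a median of -0.71. Their sum was 52.5 in Sdr9c7-/- skin and 80.1 in wild type skin. Among the adipocyte markers Pparg was nearly level at -0.02, with 2.58 in Sdr9c7-/- skin and 2.61 in wild type skin. It was the marker above 0 under median scaling and quantile normalization. The 4 endothelial markers had a median of -0.21, the 4 melanocyte markers -0.39 and the 4 leukocyte markers 0.00, with none at least 1.5-fold apart. Below 0 were all 4 melanocyte markers, all 4 endothelial markers (3 with the brightest probe) and 2 of the 4 leukocyte markers. With the uneven stretches of the slide left out, 2 endothelial markers were measured, 1 below 0 and Kdr above 0. All 3 melanocyte markers then measured were below 0, as was 1 of 3 leukocyte markers. The part of these tissues in the clock gene differences was not tested, and in whole skin fewer cells of a type cannot be told apart from less RNA per cell.

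**Figure D4:**
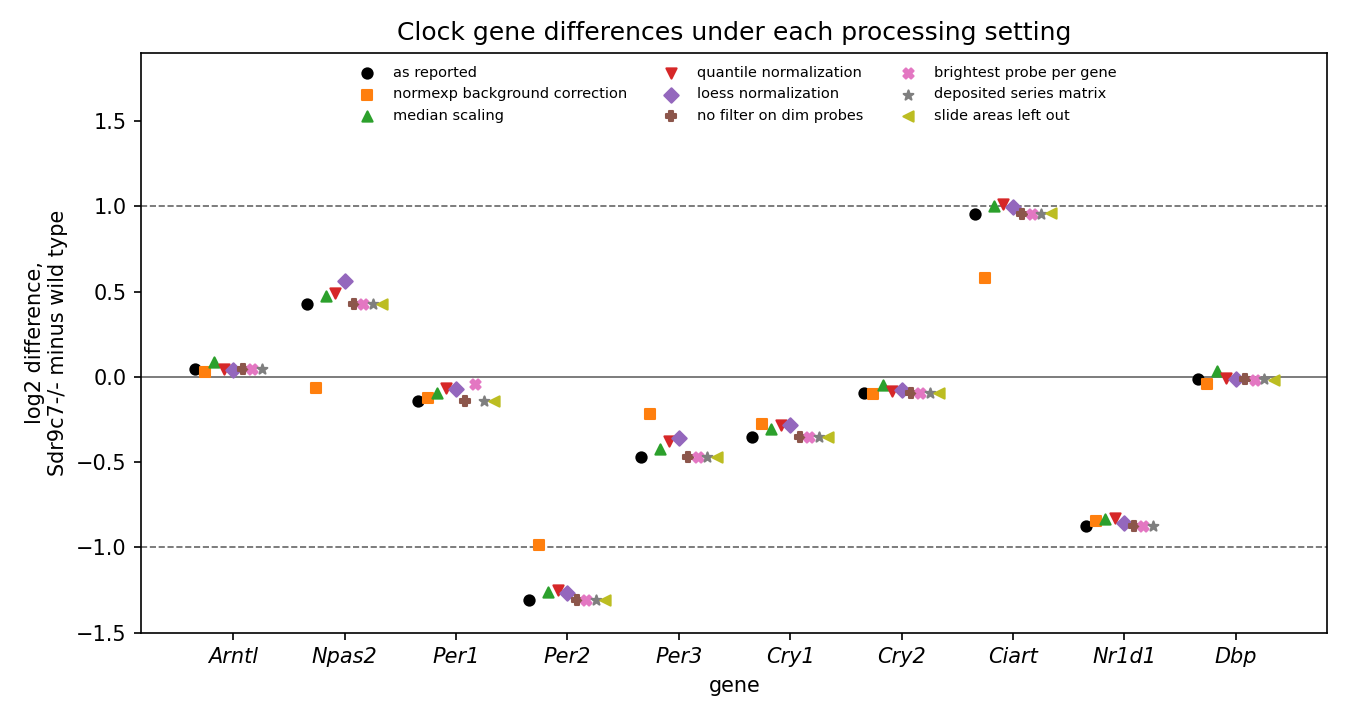
Log2 difference (Sdr9c7-/- minus wild type) of each clock gene as reported (black circle) and under 8 other processing settings, with dashed lines at 2-fold. Differences of Per2, Per3, Npas2 and Ciart are smaller in size with normexp correction, those of Nr1d1 range from -0.88 to -0.83, and Nr1d1 and Arntl have no value with slide areas left out.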

How the data were processed

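Total RNA (200 ng a sample, pooled from 5 animals, per the labels and design text) was labelled with Cy3. The authors deposited scanner files made with Agilent Feature Extraction 11.5.1.1, per the file headers. These hold the processed intensity of each of 44397 spots, after removal of background and spatial trends. The deposited series matrix holds a ratio, which by comparison with the scanner files is that intensity over 1 constant per array (2080 for Sdr9c7-/-, 1906 for wild type). Its scale is linear and genes are not centred. Both arrays lay on the same slide. The median ratio was 0.0840 for Sdr9c7-/- and 0.0855 for wild type.

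Here, 192 spots marked as outliers were left out, log2 intensities were averaged by probe, and the 75th percentile over 39417 probes was subtracted. For each gene, probes that exceeded background clearly on each array, with no saturation, were averaged. Names came from RefSeq accessions (28330 probes), symbols (2204) or synonyms (174). The rest kept the files' names. With 1 array a group no test was run, and the number of arrays limits precision. The steps were tested on simulated data. Alternatives used limma 3.58.1 for normexp (offset 50) and statsmodels 0.14.6 for loess.

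All 10 clock genes were named, with Sdr9c7 as label check and at most the 2 highest and 2 lowest genes of each other clock list. Zc3h10, Pa2g4 and Rpl41 were added after their values were seen. The members and lists were chosen with earlier results of these data known.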

Additional observations from a re-analysis of the deposited data

How the results depend on the processing

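With normexp correction Per2 was at -0.98 and Ciart at 0.58, leaving 0 of the 10 genes at least 2-fold lower and 0 at least 1.5-fold higher. The offset of 50 added in that correction draws dim signals together by construction, and over all genes it left 3.46% at least 1.5-fold apart. Ciart passed 2-fold under median scaling and quantile normalization, which gave a count of 1 higher. With the slide areas left out (rows 98 to 154 and 424 to 479, and a block at rows 493 to 518 and columns 1 to 24, found from the scatter of the data) 1 gene, Per2, was at least 1.5-fold lower, since Nr1d1 had no value. Among the other loop genes, 0 were at least 1.5-fold lower with the brightest probe, median scaling, quantile normalization or normexp correction. Among the clock outputs, 1 was with median scaling or normexp correction. The deposited series matrix and the absence of a dim filter could not move clock gene values, and the brightest probe could not move genes with 1 probe. Without those first 2 settings, 13 values moved and 88 stayed within 1 SD between probes, or within 1.5 times for counts. These cover Per2, Nr1d1, Ciart and the counts and medians of the clock lists. Some of the 88 could hardly move, so their number does not measure robustness. Median scaling shifts every difference by the same amount, smaller than that SD. Per2 and Ciart have 1 probe each and lay outside the slide areas. Over all genes, 307 were at least 2-fold lower and 120 higher as reported, 103 and 33 with normexp correction, 184 and 66 with the slide areas left out, and 978 and 814 with no filter on dim probes. Leaving out spots marked as uneven was already part of the processing and gave no separate value. No paired analysis was possible because each genotype had 1 array. Dim signals limit Npas2, Per3, Bhlhe41, Fbxl21 and Egr3, among others.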

Other observations

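Per1 and Per2 are also known as targets of glucocorticoid and growth factor signalling, and lists of such genes gave the following values with no test. Of 11 glucocorticoid responders, 9 were below 0 with a median of -0.24, beside 56.9% of all genes below 0, while Fkbp5, a glucocorticoid-induced chaperone partner, was at 0.26 and the phosphatase gene Dusp1 at 0.80. The lowest were Mt1 at -0.78, whose probes gave -0.18 and -1.38, and Klf9 at -0.62. This list shares Klf9, Tsc22d3 and Cdkn1a with the clock outputs. Of 11 immediate early genes, 9 were above 0 with a median of 0.80, and 4 were at least 2-fold higher. Over all genes 43.1% were above 0 and 0.528% at least 2-fold higher. Arc was highest at 3.02 and Fos followed at 1.73, with 6.91 in Sdr9c7-/- skin and 2.08 in wild type skin, while Egr2 was at -0.27 and the dim Egr3 at -0.24, with 0.00926 in Sdr9c7-/- skin and 0.0109 in wild type skin. Dusp1 stands in both of these lists. Beside them, Per1 was at -0.04 and -0.24 at its probes and Per2 was at -1.31.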
